A study of Saccharomyces cerevisiae with 8 samples.

Results

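The nuclear genome of Saccharomyces cerevisiae carries 32 annotated tRNA genes for aspartate and glutamate, which form 3 anticodon families: 16 tD(GUC) genes for aspartate, and 14 tE(UUC) and 2 tE(CUC) genes for glutamate. They were taken by name from the 7126 counted features, leaving out the mitochondrial copies, and they make up 32 of 274 nuclear tRNA genes in 41 anticodon families. Counts came from total RNA selected at 50 to 100 nt, in 4 groups of 2 libraries. The groups were ubc9-1 cells treated with 100 nM rapamycin for 30 min, untreated ubc9-1 cells, WT cells treated in the same way, and untreated WT cells, all in YPD medium. The strain is labelled ubc9-1 or UBC9, with no other allele named. The title of the series names its subject as TORC1, the rapamycin-sensitive kinase complex, and its control of RNA polymerase III by way of SUMO.

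A tRNA carries its amino acid to the ribosome and pairs through its anticodon with the codon. tD(GUC) reads both aspartate codons, tE(UUC) reads the glutamate codon GAA, and tE(CUC) reads GAG. RNA polymerase III transcribes these genes from an A box and a B box inside the gene. After transcription the ends are trimmed, the bases CCA are added to the 3′ end, and many bases are modified. In budding yeast TORC1 promotes transcription by RNA polymerase III, and Ubc9 is the enzyme that conjugates the small protein SUMO to its targets.

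The 32 genes hold 5 distinct sequences, shown here because they decide which copies can be told apart by reads. These are the genomic sequences of 1 gene for each, from the RefSeq R64 genome, 5′ to 3′ on the gene's strand in DNA letters, with the anticodon in capitals.
tD(GUC)G1: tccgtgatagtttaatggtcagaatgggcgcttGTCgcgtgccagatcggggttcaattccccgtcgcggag
tD(GUC)N: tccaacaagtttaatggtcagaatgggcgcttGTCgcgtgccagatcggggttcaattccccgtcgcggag
tE(UUC)L: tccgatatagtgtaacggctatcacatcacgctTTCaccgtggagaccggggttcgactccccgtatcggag
tE(UUC)M: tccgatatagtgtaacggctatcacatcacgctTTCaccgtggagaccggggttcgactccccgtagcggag
tE(CUC)I: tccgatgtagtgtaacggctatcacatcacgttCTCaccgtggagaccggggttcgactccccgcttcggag

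tD(GUC)G1 lies at VII:531610-531681 on the plus strand, and 15 of the 16 tD(GUC) genes share its 72 bases. tD(GUC)N, at XIV:519099-519169 on the minus strand, is 71 bases long and shares a run of 64 bases at the 3′ end with the other copies, so it differs only near the 5′ end. tE(UUC)L lies at XII:797178-797249 on the plus strand, with 13 identical copies in all. tE(UUC)M, at XIII:290801-290872 on the plus strand, differs from it by T67G, counted from 1 at the 5′ end with the base of tE(UUC)L first. tE(CUC)I, at IX:197592-197663 on the plus strand, differs from tE(UUC)L by A7G, C32T, T34C, T65C and A66T, and is 93.06% identical to it. T34C is the first base of the anticodon. The aspartate and glutamate genes are 75.0% identical over the 72 bases of tD(GUC)G1 and tE(UUC)L.

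All 32 genes hold the B box letters GTTCNANNC, searched on both strands of the gene, as do 237 of the 242 other nuclear tRNA genes (97.93%). The A box consensus, searched in the same way, is in 31 of the 32 genes and in all 242 others, and the exception is tD(GUC)N, the copy that differs at the 5′ end. The string TAGTNTAANGG was read off bases 8 to 18 of 31 of the 32 genes, which therefore hold it by construction. Searched in the same way, it is in 0 of the 242 others. These are matches of letters only. 4 of the tD(GUC) genes, B, D, J2 and J3, begin 10 bases downstream of a tR(UCU) gene for arginine.

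These families took a large part of the tRNA counts. Summed over all copies and over the 8 libraries, tD(GUC) ranked 1 of 41 families with 8747132 counts, tE(UUC) ranked 3 with 1597003 and tE(CUC) ranked 9 with 244316. The glycine family tG(GCC) ranked 2, with 8228003 counts, an order that differs between libraries and with the way copies are summed. As a mean share of the nuclear tRNA counts of a library, tD(GUC) held 53.8% ± 3.33 in treated ubc9-1, 40.8% ± 9.33 in untreated ubc9-1, 32.8% ± 2.46 in treated WT and 39.5% ± 4.34 in untreated WT (SD, n = 2 each). tE(UUC) held 10.1% ± 0.666 in treated ubc9-1, 8.92% ± 2.38 in untreated ubc9-1, 5.97% ± 1.90 in treated WT and 6.57% ± 0.0244 in untreated WT (SD, n = 2 each). The single counted tE(CUC) gene held 1.65% ± 0.120 in treated ubc9-1, 1.22% ± 0.332 in untreated ubc9-1, 0.827% ± 0.0322 in treated WT and 1.13% ± 0.0489 in untreated WT (SD, n = 2 each). These shares move with every other tRNA, above all tG(GCC), which held 14.4% ± 2.74 in treated ubc9-1, 29.7% ± 12.5 in untreated ubc9-1, 49.1% ± 2.18 in treated WT and 32.2% ± 5.42 in untreated WT (SD, n = 2 each), so that in treated WT it held more than tD(GUC). A featureCounts option counted each alignment of a read that maps to several places, so a read from one of the identical copies is counted once per copy and the sums are not numbers of molecules.

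The shares depend on this counting. For the shares that follow, the copy taken for each sequence was the one with the most counts over all libraries, such as tD(GUC)G1 and tE(UUC)L. These had more counts than most of their identical copies, so the shares also depend on the copy taken. With 1 copy taken for each distinct sequence, tD(GUC) held 37.2% ± 4.27 in treated ubc9-1, 26.9% ± 9.06 in untreated ubc9-1, 21.8% ± 0.999 in treated WT and 26.9% ± 1.37 in untreated WT (SD, n = 2 each). tE(UUC) then held 7.25% ± 0.116 in treated ubc9-1, 5.77% ± 1.83 in untreated ubc9-1, 4.84% ± 1.49 in treated WT and 4.24% ± 0.003 in untreated WT (SD, n = 2 each). tE(CUC) held 6.35% ± 0.328 in treated ubc9-1, 4.4% ± 1.44 in untreated ubc9-1, 2.69% ± 0.178 in treated WT and 3.68% ± 0.0372 in untreated WT (SD, n = 2 each). tG(GCC) held 17.6% ± 3.71 in treated ubc9-1, 34.5% ± 13.5 in untreated ubc9-1, 52.6% ± 1.43 in treated WT and 34.6% ± 4.41 in untreated WT (SD, n = 2 each), a higher mean than tD(GUC) in all groups but treated ubc9-1.

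Levels between libraries were compared as CPM, counts scaled to a common library size with TMM factors (trimmed mean of M values), summed over the copies. Library totals were 14304014 to 21061460 assigned counts, with TMM factors from 0.695 to 1.37. Replicates differed by more than sampling noise in every group, the chi-square over its degrees of freedom being 54.2 to 287. In these bulk samples fewer contributing cells and less RNA per cell cannot be told apart. The labels do not say whether replicates were separate cultures, so the p-values reflect only how far these libraries differ, and that may be technical. mRNA fragments of UBC9 had 221 and 298 counts in treated and 307 and 554 in untreated ubc9-1 libraries, against 79 and 114 in treated and 2 and 74 in untreated WT libraries, and these counts do not test the allele itself.

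**Figure D1:**
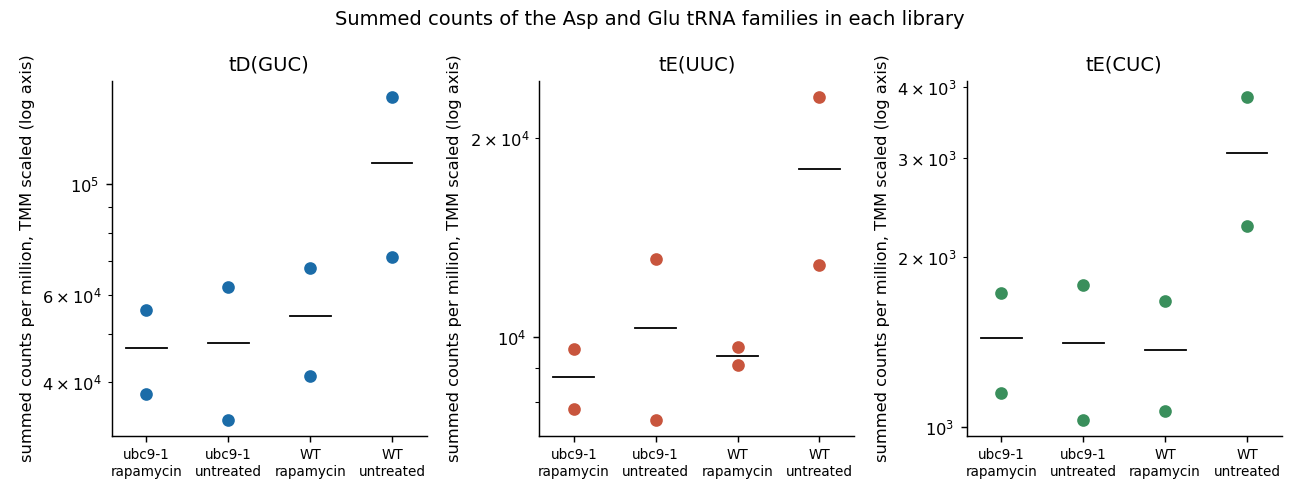
Summed TMM-scaled CPM of the 3 families in each library, on log axes, with 1 point per library and a line at the mean of each group of 2. Both untreated WT libraries lie above both libraries of the other groups for all 3 families, except that an untreated ubc9-1 library at 13152 lies above the lower untreated WT library at 12874 for tE(UUC).

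In WT cells all 3 families had lower levels with rapamycin than without. In the table of sums the fall of tE(CUC) passed the test and those of tD(GUC) and tE(UUC) did not. Tested as a single gene, with the same counts, tE(CUC)I did not pass either (edgeR adjusted p = 0.0659). These calls also change with the method, as given below. tD(GUC) had 67755 and 41064 CPM in treated WT libraries, against 149852 and 71266 CPM in untreated WT libraries. Its 2 treated libraries lay below both untreated ones, with the nearest pair close together. The log2 fold change was -1.02 (SE 0.411), with an edgeR quasi-likelihood adjusted p of 0.0884. tE(UUC) had 9079 and 9681 CPM in treated WT libraries, against 23049 and 12874 CPM in untreated WT libraries. These groups did not overlap either, and the treated libraries were near each other while the untreated ones were far apart. The log2 fold change was -0.94 (SE 0.362, edgeR adjusted p = 0.0778). tE(CUC), which is 1 counted gene, had 1668 and 1064 CPM in treated WT libraries, against 3844 and 2271 CPM in untreated WT libraries. All treated values were below all untreated ones, and the family fell by 1.16 on the log2 scale (SE 0.384, edgeR adjusted p = 0.0411).

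That is 1 of the 3 families called lower. Of all 41 families 27 were called lower (65.9%), and of all rows in the table with anticodon sums 10.5% were called lower. Set among the 41 families by log2 fold change from the lowest up, tE(CUC) ranked 31, tD(GUC) 32 and tE(UUC) 34, and the median of the families was -1.70. The glycine family tG(GCC) ranked 41 at -0.09 (SE 0.487), with 93231 and 66923 CPM in treated WT libraries, against 99968 and 70525 CPM in untreated WT libraries. The 3 families thus stood in the weaker part of the tRNA response by rank, a difference that was not tested. The count of 27 families was 16 with total counts, 16 without untreated WT replicate 1 and 12 without treated WT replicate 2.

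The call of tE(CUC) was lost without any of 5 libraries: its log2 fold change was -0.76 (adjusted p = 0.259) without untreated WT replicate 1, -1.51 (0.0651) and -0.87 (0.309) without treated WT replicates 1 and 2, and -1.15 (0.0612 and 0.0622) without either treated ubc9-1 library, all by edgeR. With scaling to total counts the median of all features was 0.52, against 0.04 with TMM, and this gave tE(CUC) -0.64 (edgeR adjusted p = 0.235), tD(GUC) -0.47 (0.239) and tE(UUC) -0.36 (0.430). The DESeq2 Wald test called the other 2 families as well, tD(GUC) at -1.05 (adjusted p = 0.0389) and tE(UUC) at -0.97 (adjusted p = 0.0236), and with no filter on low counts edgeR called tD(GUC) at -1.01 (adjusted p = 0.0470). With 1 copy per distinct sequence, the most counted one, tE(UUC) was the sum of tE(UUC)L and tE(UUC)M and had -0.58 (edgeR adjusted p = 0.262). Whether the responses of the 3 families differ from each other was not tested on the sums.

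**Figure D2:**
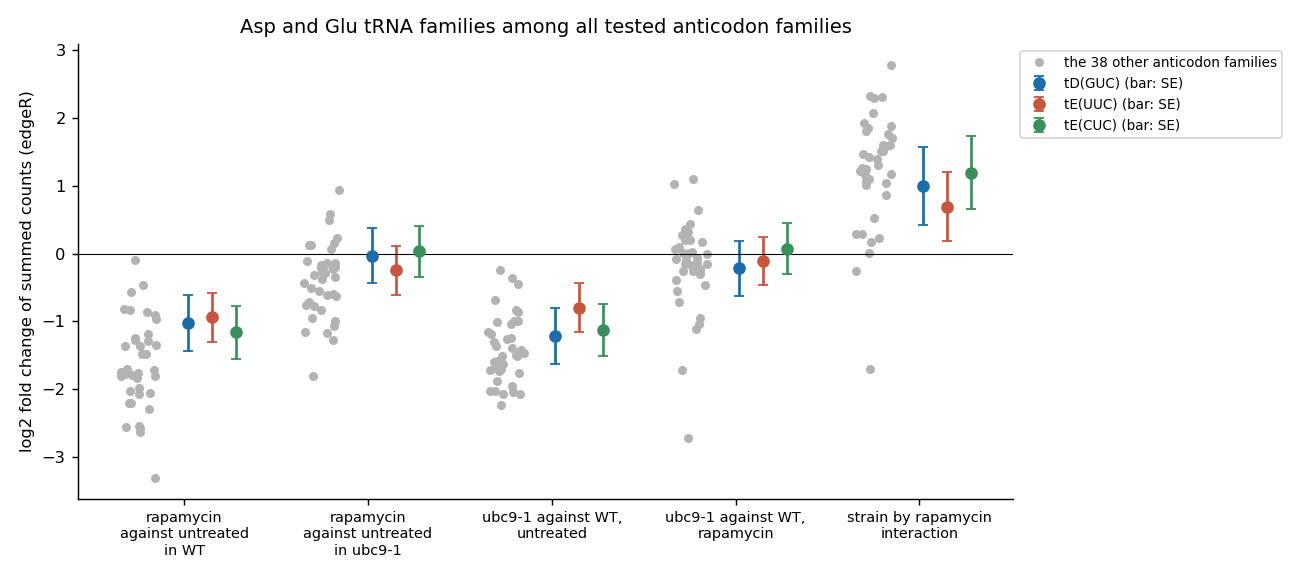
Log2 fold changes of summed counts from edgeR for all 41 anticodon families in the 5 comparisons, with the 3 families in colour and bars of 1 SE. In WT cells the 3 families lie between -1.16 and -0.94, above the family median of -1.70, and in ubc9-1 cells they lie near 0.

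In ubc9-1 cells no change of the 3 families with rapamycin was detected. tD(GUC) had 55940 and 37862 CPM in treated ubc9-1 libraries, against 62142 and 33600 CPM in untreated ubc9-1 libraries, a log2 fold change of -0.03 (SE 0.407, edgeR adjusted p = 0.993). tE(UUC) had 9618 and 7797 CPM in treated ubc9-1 libraries, against 13152 and 7516 CPM in untreated ubc9-1 libraries, a log2 fold change of -0.25 (SE 0.359, edgeR adjusted p = 0.920). tE(CUC) had 1725 and 1150 CPM in treated ubc9-1 libraries, against 1784 and 1029 CPM in untreated ubc9-1 libraries, a log2 fold change of 0.03 (SE 0.379, edgeR adjusted p = 0.993). In all 3 the treated values lay between the untreated ones. By edgeR 0 of the 3 and 0 of the 41 families were called (1.95% of all rows in that table were), 0 and 5 had an unadjusted p under 0.05, and DESeq2 called 0 lower. The difference between the strains' responses was tested as the interaction, with the response in WT subtracted from that in ubc9-1. It was 0.99 for tD(GUC) (SE 0.577, edgeR adjusted p = 0.479), 0.69 for tE(UUC) (SE 0.508, edgeR adjusted p = 0.611) and 1.19 for tE(CUC) (SE 0.538, edgeR adjusted p = 0.335). By edgeR 0 of the 3 and 0 of the 41 families passed, beside 0.339% of all rows, with 1 and 21 at an unadjusted p under 0.05, so the strains were not shown to differ in their response. Leaving out a library in turn gave an interaction of 0.38 to 1.5 for tD(GUC), 0.23 to 1.15 for tE(UUC) and 0.78 to 1.64 for tE(CUC), lowest without untreated WT replicate 1 and highest without untreated ubc9-1 replicate 1. Total counts gave tD(GUC) 0.52, tE(UUC) 0.19 and tE(CUC) 0.73, and snoRNA factors gave tD(GUC) 0.20, tE(UUC) -0.12 and tE(CUC) 0.40. With snoRNA factors the change with rapamycin in ubc9-1 was -0.55 for tD(GUC), -0.77 for tE(UUC) and -0.50 for tE(CUC), and none was called.

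Without the drug the 3 families were lower in ubc9-1 than in WT by a similar size, and none passed the threshold. From the library values above, tD(GUC) differed by -1.21 on the log2 scale (SE 0.413, edgeR adjusted p = 0.0941), and both ubc9-1 libraries lay below both WT libraries. tE(CUC) differed by -1.12 (SE 0.384, edgeR adjusted p = 0.0954), again with no overlap. tE(UUC) differed by -0.80 (SE 0.361, edgeR adjusted p = 0.204), and its groups overlapped, at 13152 CPM in ubc9-1 against 12874 CPM in WT. Here 16 of 41 families (39%) were called lower, and 4.97% of all rows were called in either direction. That count was 4 with total counts, 2 with snoRNA factors, 22 with DESeq2, 28 with no filter, 8 with only the 4 libraries compared, 3 without untreated WT replicate 1, and 25 and 4 without untreated ubc9-1 replicates 1 and 2. With TMM factors from snoRNAs alone, which moved the median of all features to 1.03, the difference of tE(UUC) was 0.12 and so had the other sign, while that of tD(GUC) was -0.30 and that of tE(CUC) -0.20. Without untreated WT replicate 1 the differences were -0.57 for tD(GUC), -0.32 for tE(UUC) and -0.69 for tE(CUC), and without untreated ubc9-1 replicate 2 they were -0.83 for tD(GUC), -0.45 for tE(UUC) and -0.77 for tE(CUC). Without untreated ubc9-1 replicate 1 they were -1.69 for tD(GUC), which edgeR then called (adjusted p = 0.0378), -1.23 for tE(UUC) and -1.55 for tE(CUC). The DESeq2 Wald test called tD(GUC) at -1.24 (adjusted p = 0.0257) and tE(CUC) at -1.16 (adjusted p = 0.0243) in this comparison.

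With the drug no difference between the strains was detected in the 3 families. The log2 fold change of ubc9-1 over WT under rapamycin was -0.21 for tD(GUC) (SE 0.407, edgeR adjusted p = 0.839), -0.11 for tE(UUC) (SE 0.359, edgeR adjusted p = 0.917) and 0.07 for tE(CUC) (SE 0.379, edgeR adjusted p = 0.951). The sign of tE(CUC) turned to -0.25 with total counts, and that of tE(UUC) to 0.0026 with snoRNA factors. Total counts gave tD(GUC) -0.54 and tE(UUC) -0.46, and 1 copy per distinct sequence gave tD(GUC) -0.38 and tE(UUC) -0.53, none of them called. Of the 41 families 2 (4.88%) were called lower, one of them tG(GCC), which fell by 2.71 (SE 0.519, edgeR adjusted p = 0.00925), beside 4.14% of all rows called in either direction.

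Ratios within a library do not depend on scaling between libraries. Here each sum was divided by the number of its genes with counts. A read shared by identical copies is counted at each of them, so these ratios do not give the output of single genes. Per gene copy tD(GUC) was 5.09 and 4.25 times tE(UUC) in treated ubc9-1 libraries, 4.13 and 3.91 in untreated ubc9-1, 6.53 and 3.71 in treated WT and 5.69 and 4.84 in untreated WT. tE(CUC) was 2.51 and 2.06 times tE(UUC) per gene copy in treated ubc9-1, 1.90 and 1.92 in untreated ubc9-1, 2.57 and 1.54 in treated WT and 2.33 and 2.47 in untreated WT, with tE(CUC) taken as 1 copy because its other gene had no counts. The glutamate ratio spread most in treated WT, where its 2 libraries enclosed those of untreated WT. Over the 8 comparisons made, no exact two-sided permutation test gave an adjusted p below 0.667, and 2 against 2 libraries cannot go below a p of 0.333.

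Single copies show how the counts of the sums spread over the genes. All but 1 of the 32 genes had counts and 31 were tested. tE(CUC)D, at IV:1017207-1017278 on the minus strand, was at 0 in all libraries. It has the same sequence as tE(CUC)I and overlaps the annotated YDR278C on the same strand, and the command in the file headers sets no option for counting reads that overlap more than 1 gene.

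Among the identical tD(GUC) genes, 14 had almost the same counts and tD(GUC)G1 had about 3 times as many. In treated ubc9-1 libraries tD(GUC)G1 had 118564 and 82039 counts beside a median of 42744 and 34095 for the 14 others. In untreated ubc9-1 libraries it had 133950 and 123018 beside 54902 and 45036. In treated WT libraries it had 286994 and 218026 beside 90373 and 66408, and in untreated WT libraries 289040 and 265147 beside 97046 and 70985. The gap stood in every library, at 2.41 to 3.74 times, while the 14 others stayed within 54831 to 55036 counts in untreated ubc9-1 replicate 1, for example. tD(GUC)N, the copy that differs at the 5′ end, had the fewest counts of its family, 207754 over all libraries.

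The tE(UUC) family split in the same way, with 2 high copies. tE(UUC)L and tE(UUC)B, at II:645167-645238 on the plus strand, averaged 20432 and 16275 counts in treated ubc9-1 libraries, beside a median of 7419 and 7378 for the 11 other identical copies. In untreated ubc9-1 libraries they averaged 29722 and 24251, beside 11987 and 10784. In treated WT libraries they averaged 46638 and 65633, beside 10202 and 12954, and in untreated WT libraries 40429 and 38949, beside 15382 and 13225. The high copies thus stood 4.57 and 5.07 times above the others in treated WT, against 2.63 and 2.95 times in untreated WT, and 2.75 and 2.21 times in treated against 2.48 and 2.25 times in untreated ubc9-1. In WT these groups do not overlap, and in ubc9-1 they do. The exact two-sided permutation p in WT was 0.333, the smallest that 2 against 2 libraries allow, in a ratio chosen after the counts were seen.

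**Figure D3:**
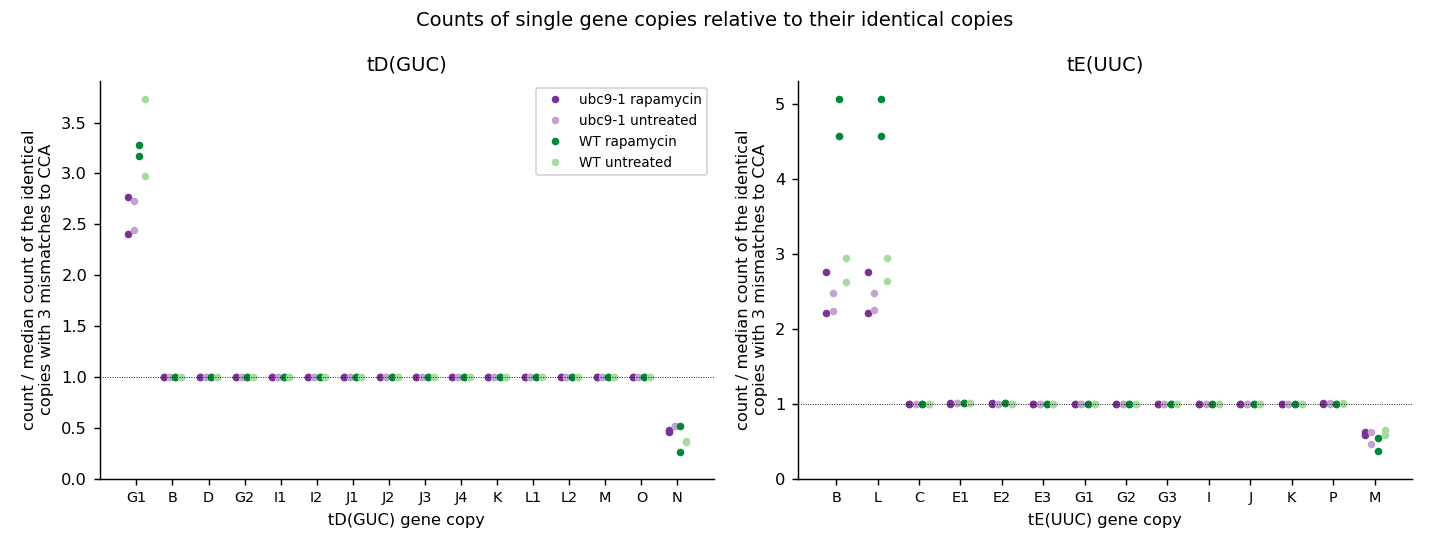
Counts of each tD(GUC) and tE(UUC) gene copy divided by the median of the identical copies with 3 mismatches to CCA, 1 point per library, with linear axes from 0. tD(GUC)G1 lies at 2.41 to 3.74, tE(UUC)L and tE(UUC)B at 2.21 to 5.07 with the treated WT libraries highest, and the other identical copies at 1.

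The bases just after these genes differ, and they are shown because the genes themselves do not. Each line gives the last 12 bases of the gene and the next 8 of the RefSeq R64 genome, on the gene's strand, with the first 3 downstream bases in capitals.
tD(GUC)G1: cccgtcgcggagATAttttt
tD(GUC)L2: cccgtcgcggagATTtttca
tD(GUC)D: cccgtcgcggagAATttttt
tE(UUC)L: cccgtatcggagATAtattt
tE(UUC)B: cccgtatcggagTTAttttt
tE(UUC)G1: cccgtatcggagTTTtttgt
tE(UUC)E1: cccgtatcggagTACttttt

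A mature tRNA ends in CCA, which the genome does not encode here. The first 3 downstream bases of tD(GUC)G1, tE(UUC)L and tE(UUC)B have an A in the last place and so 2 mismatches to CCA, and those of the other identical copies have 3. tE(CUC)I also has 2 mismatches and tE(CUC)D has 3. In other nuclear families there were 20 groups of identical copies that differ in this number. In 7 of them the copies with fewer mismatches had over 1.5 times the counts of those with more, in 12 the ratio lay between 0.67 and 1.5, and in 1 it was below 0.67. The median ratio was 1.34, and that of tG(GCC) was 179. The part of these bases in the counts was not tested, and the mismatch limit of the alignment is not given in the sources used here.

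Among the tE(UUC) copies those with 3 mismatches were called with rapamycin in WT, and tE(UUC)L and tE(UUC)B were not. The permutation test of the ratio given above, with 2 against 2 libraries, cannot decide whether the identical copies of these classes differ. Among the tD(GUC) copies there were no calls. The 31 tested copies had log2 fold changes from -1.65 to -0.42, and 29 had an unadjusted edgeR p under 0.05. Of the 31, 12 were called lower, all of them tE(UUC) genes, in a comparison where 11.6% of single features were called lower. But 11 of the 12 are identical and take the same multi-mapping reads, so they are not separate results and the 2 shares cannot be compared. The 12 are these 11 identical copies with 3 mismatches, such as tE(UUC)G1 with 439 and 450 CPM in treated WT libraries, against 1369 and 733 CPM in untreated WT libraries (log2 fold change -1.24, SE 0.399, edgeR adjusted p = 0.0412), and tE(UUC)M. tE(UUC)M had 238 and 168 CPM in treated WT libraries, against 796 and 475 CPM in untreated WT libraries. It fell by 1.65 (SE 0.377, edgeR adjusted p = 0.00715), the lowest value of the 31, and both treated libraries were below both untreated ones. tE(UUC)L had -0.43 (SE 0.404, edgeR adjusted p = 0.50) and tE(UUC)B -0.42 (SE 0.405, edgeR adjusted p = 0.503), the 2 highest values of the 31. The 16 tD(GUC) copies lay between -1.08 at tD(GUC)N (SE 0.446, edgeR adjusted p = 0.103) and -1.02, with tD(GUC)G1 also at -1.02 (SE 0.426, edgeR adjusted p = 0.105), and none was called. tE(CUC)I as a single gene had -1.16 (SE 0.421, edgeR adjusted p = 0.0659), so it was called only in the table of sums.

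Split by read class, the tE(UUC) counts shared by all identical copies fell by 1.24 (SE 0.360, edgeR adjusted p = 0.0215) in WT, while the counts of tE(UUC)L and tE(UUC)B above that shared level had -0.11 (SE 0.382, edgeR adjusted p = 0.888). For tD(GUC) both classes gave -1.02, with SE 0.420 (edgeR adjusted p = 0.0951) for the shared level and SE 0.386 (edgeR adjusted p = 0.0721) above it. The 12 calls became 0 without untreated WT replicate 1, 0 without treated WT replicate 2, and 1 without treated WT replicate 1 or either treated ubc9-1 library. The 1 copy left called was tE(UUC)M without treated WT replicate 1 (-1.91, edgeR adjusted p = 0.0263) and without treated ubc9-1 replicate 1 (-1.64, edgeR adjusted p = 0.0173) or 2 (-1.64, edgeR adjusted p = 0.0176). Total counts gave 0 calls and snoRNA factors 1.

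**Figure D4:**
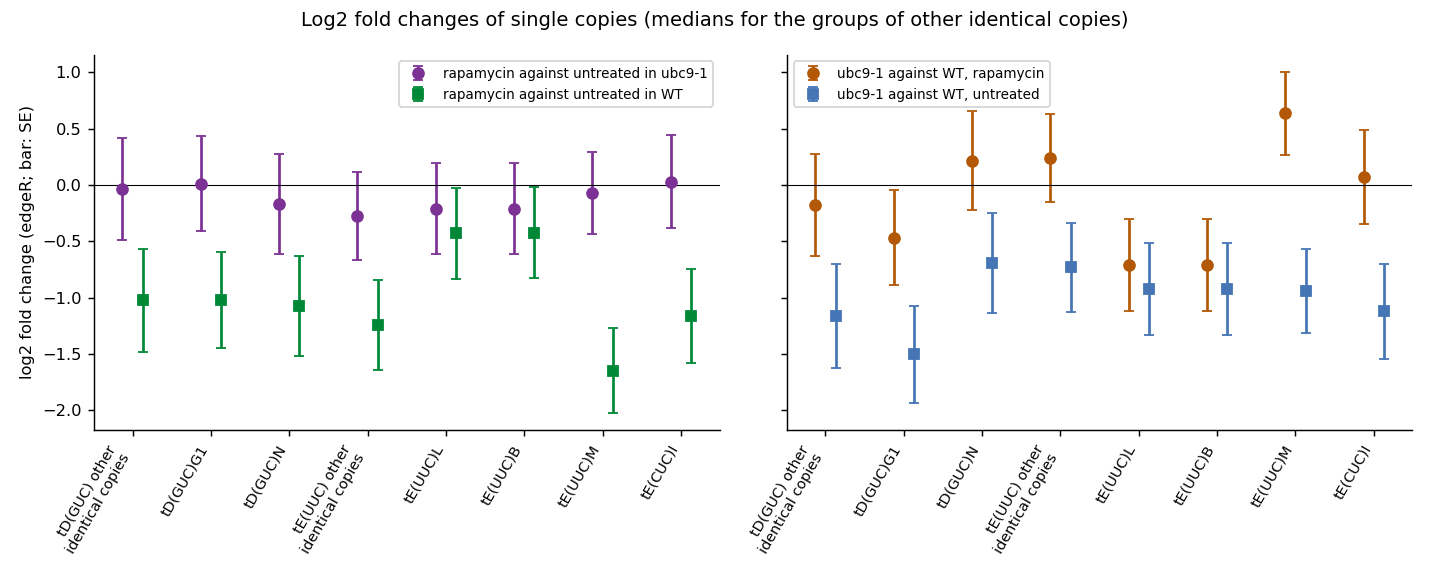
Log2 fold changes of single copies from edgeR with bars of 1 SE, with the median for the groups of other identical copies, for the responses to rapamycin on the left and the strain differences on the right. With rapamycin in WT the other identical tE(UUC) copies lie at -1.24 and tE(UUC)L at -0.43, and under rapamycin tE(UUC)M lies at 0.64 between the strains and tE(UUC)L at -0.71.

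In the other comparisons no single copy was called by edgeR. With rapamycin in ubc9-1, 0 of 31 copies were called (1.49% of all features), 0 had an unadjusted p under 0.05, and DESeq2 called 0. Their log2 fold changes ran from -0.28 to 0.03. In ubc9-1 against WT without the drug 0 of 31 were called (4.69% of all features), 19 had an unadjusted p under 0.05, and DESeq2 called 3. The lowest of these was tD(GUC)G1 at -1.50 (SE 0.431, edgeR adjusted p = 0.0607), with tD(GUC)N highest at -0.69 (SE 0.443, edgeR adjusted p = 0.383). The counts of tD(GUC)G1 above the shared level fell by 1.69 in untreated ubc9-1 (SE 0.393, edgeR adjusted p = 0.0236), against a difference of -1.16 for the shared level (SE 0.421, edgeR adjusted p = 0.112). The log2 ratio of tD(GUC)G1 to its identical copies differed by -0.37 here, with no overlap. Its exact two-sided permutation p was 0.333, the smallest possible, which cannot decide whether the classes differ. Neither class was fitted with other scalings or with a library left out.

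Under rapamycin 0 of 31 copies were called between the strains (2.01% of all features), 0 had an unadjusted p under 0.05 and DESeq2 called 0. The copies of tE(UUC) parted here, with tE(UUC)B at -0.71 (SE 0.406, edgeR adjusted p = 0.395) and tE(UUC)L at -0.71 (SE 0.405, edgeR adjusted p = 0.395), against 0.64 for tE(UUC)M (SE 0.369, edgeR adjusted p = 0.401). The identical copies with 3 mismatches, such as tE(UUC)G1 at 0.24 (SE 0.393, edgeR adjusted p = 0.821), stood between them. tE(UUC)M had 327 and 305 CPM in treated ubc9-1 libraries, against 238 and 168 CPM in treated WT libraries, with no overlap. For the interaction 0 of 31 were called (0.164% of all features), 1 had an unadjusted p under 0.05 and DESeq2 called 1. That copy was tE(UUC)M, at 1.58 (SE 0.523, edgeR adjusted p = 0.219).

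**Figure D5:**
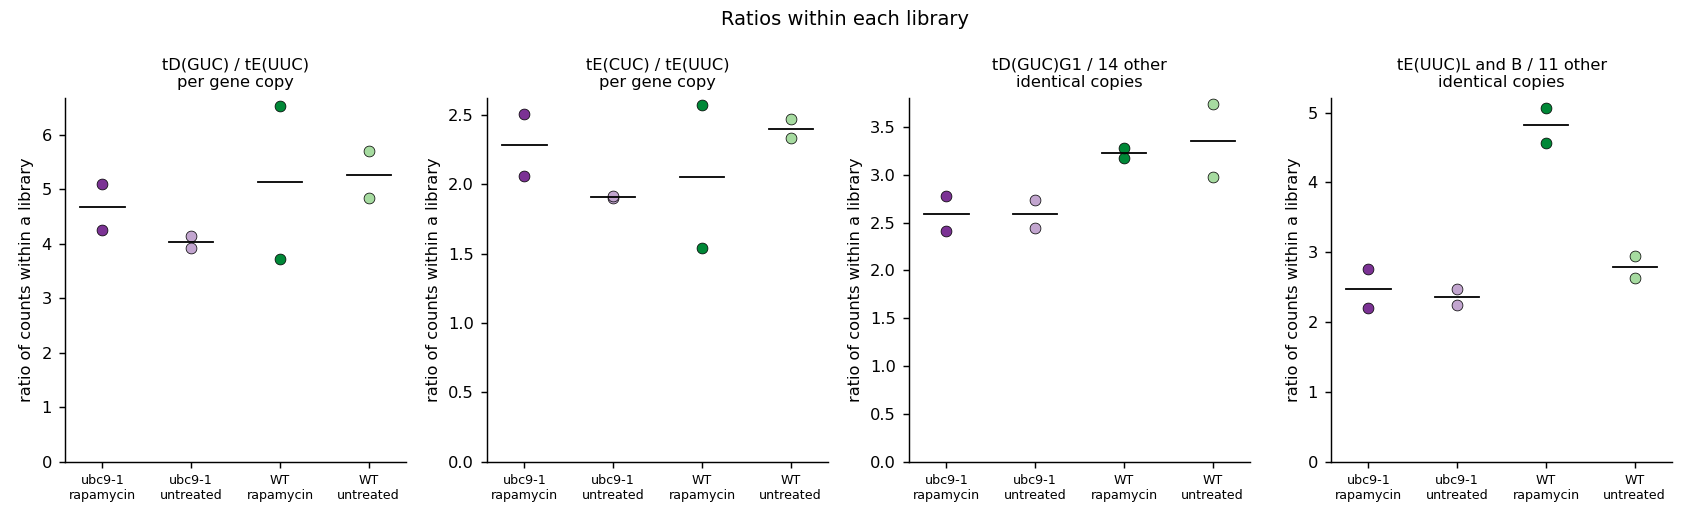
Ratios of counts within each library on linear axes from 0, with 1 point per library and a line at the mean of each group of 2. From left to right they are tD(GUC) to tE(UUC) and tE(CUC) to tE(UUC) per gene copy, tD(GUC)G1 to its 14 other identical copies, and tE(UUC)L and B to their 11 others, where treated WT libraries at 4.57 and 5.07 lie above all others.

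The mitochondrial tRNAs of the same anticodons are made by another RNA polymerase. tD(GUC)Q had 13656 and 9418 counts in treated WT libraries, against 20347 and 19240 in untreated WT libraries, and fell by 1.65 on the log2 scale (SE 0.458, edgeR adjusted p = 0.0205). tE(UUC)Q had 8864 and 3767 counts in treated WT libraries, against 10408 and 6523 in untreated WT libraries, with -1.33 (SE 0.538, edgeR adjusted p = 0.0950). In untreated ubc9-1 libraries tE(UUC)Q had 2086 and 1751 counts, against 10408 and 6523 in untreated WT libraries, and it differed by -2.58 (SE 0.561, edgeR adjusted p = 0.0260). tD(GUC)Q differed by -1.45 there (SE 0.455, edgeR adjusted p = 0.0801) and was not called. With rapamycin in ubc9-1 tD(GUC)Q had -0.50 and tE(UUC)Q -0.23, and between the treated strains they had -0.29 and -1.48. None of these was called. The mitochondrial tRNAs were not fitted with other scalings or with a library left out. In TMM-scaled CPM, untreated WT libraries had 1811 and 1067 for tD(GUC)Q, and 926 and 362 for tE(UUC)Q.

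The enzymes that act on these tRNAs were read from the mRNA fragments in the same libraries, as 4 lists. Of 6 mRNAs for charging aspartate and glutamate tRNA, 0 were called by edgeR in any of the 5 comparisons, with 1 at an unadjusted p under 0.05 in each comparison of ubc9-1 under the drug and 0 in the others, and DESeq2 called 0 lower. DPS1, the cytosolic aspartyl-tRNA synthetase, had 817 and 1061 counts in treated WT libraries, against 409 and 495 in untreated WT libraries, a scaled log2 fold change of 0.17 (SE 0.277, edgeR adjusted p = 0.706). GUS1, the cytosolic glutamyl-tRNA synthetase, had 1318 and 2512 counts in treated WT libraries, against 478 and 1001 in untreated WT libraries, a scaled log2 fold change of 0.55 (SE 0.341, edgeR adjusted p = 0.280).

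The first base of the tE(UUC) anticodon is a uridine that Elongator, the Kti proteins, Trm9 with Trm112, and the Urm1 pathway modify. Of 21 such mRNAs 8 were called lower with rapamycin in WT (as were 11.6% of all features), and 0 were called higher. They were NCS2 at -2.39 and NCS6 at -1.60, both of thiolation, ELP2 at -2.20, ELP3, the catalytic subunit of Elongator, at -2.10, IKI1 at -1.28, TRM112 at -1.98, SAP185 at -1.26 and KTI12 at -0.92, with edgeR adjusted p from 0.00252 for ELP3 to 0.0483 for KTI12. The median of the 21 was -0.76, beside 0.04 for all features. Members of the Urm1 pathway went both ways. URM1 had -1.69 (edgeR adjusted p = 0.178) and was not called. NFS1, UBA4 and TUM1 had the highest values of the list, at 1.00, 0.74 and 0.67 (edgeR adjusted p = 0.101, 0.191 and 0.414).

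Of 9 mRNAs for base modification in the tRNA body 8 were called lower in WT, as were 11.6% of all features, with a list median of -1.82. DUS3 had -2.82, SMM1 -2.04 and DUS1 -1.82, all dihydrouridine synthases, with edgeR adjusted p from 0.00033 for DUS3 to 0.0137 for DUS1. The pseudouridine synthases PUS3, PUS1, PUS4 and PUS7 had -1.89, -1.87, -1.54 and -1.10, and TRM2, which methylates a uridine in the T loop, had -1.76 (edgeR adjusted p from 0.00271 for PUS3 to 0.0323 for PUS7). DUS4 had -0.95 (SE 0.456, edgeR adjusted p = 0.159) and was not called. Of 13 mRNAs for maturation of the tRNA ends 5 were called lower in WT, beside the same 11.6% of all features, with a list median of -1.04. They were TRZ1, which cuts the 3′ trailer, at -3.11, the RNase P subunits POP6 at -3.06 (SE 0.977), POP4 at -1.69 and POP7 at -1.62, and the La protein LHP1 at -1.18, with edgeR adjusted p from 0.000502 for TRZ1 to 0.0459 for LHP1. The other RNase P subunits on the list were not called, and ran from -1.53 for POP8 to 0.39 for RPR2. CCA1 at -0.53 and REX1 at -0.02 were not called either.

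With TMM factors and all 8 libraries, no mRNA of the 4 lists was called by edgeR with rapamycin in ubc9-1, in ubc9-1 against WT, or in the interaction. Few features were called at all there: 1.49% with rapamycin in ubc9-1, 4.69% between the untreated strains, 2.01% between the treated strains and 0.164% in the interaction. The lack of calls among 49 mRNAs is thus near the share of all features. Of the 49, 9 had an unadjusted p under 0.05 with rapamycin in ubc9-1, 5 between the strains without the drug, 9 with it and 10 in the interaction, and DESeq2 called 1 lower, with rapamycin in ubc9-1. In that comparison edgeR called 1 charging, 2 tRNA body and 1 end maturation mRNAs lower with snoRNA factors, 1 tRNA body mRNA lower with no filter and without either untreated WT library, and 1 charging and 1 tRNA body mRNA lower without untreated ubc9-1 replicate 1. With only the 4 libraries compared, 1 charging mRNA was called lower in ubc9-1 against WT under rapamycin. The lists' medians with rapamycin in ubc9-1 ran from -0.59 for end maturation to -0.14 for charging. The WT counts depend on scaling and on libraries. The calls of 8, 8 and 5 in the lists of wobble uridine, tRNA body and tRNA ends were 0, 1 and 1 with total counts, 2, 4 and 1 with snoRNA factors, 2, 4 and 2 without treated WT replicate 2, 4, 5 and 2 without treated WT replicate 1, and 6, 8 and 3 without untreated WT replicate 1. Without either treated ubc9-1 library they were 5, 8 and 4. Reads of 50 to 100 nt RNA from mRNAs are fragments, so these are levels of fragments.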

How the data were processed

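Groups and replicates came from the sample labels, 2 libraries per group. Alignment with TopHat2 2.0.13, counting with featureCounts 1.4.6-p3 and build R64 are listed in the submitters' processing notes. The deposited counts are whole numbers for each gene with no scaling. By the command in the file headers, paired reads were counted per gene, every alignment of a multi-mapping read was included, and neither strand nor an overlap option was set. The deposited normalized values were not used.

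All 32 genes had the coordinates of the RefSeq R64 annotation, which gave the sequences. Counts were summed per anticodon. The test was edgeR's quasi-likelihood F test (edgeR 4.0.16, R 4.3.3), fitted to all 8 libraries with a coefficient for each group, TMM factors from all features and filterByExpr (minimum count 10). Benjamini-Hochberg adjustment ran over all 5893 rows of the table with sums, or over all 6115 single features, and called at 0.05. Standard errors (SE) are the absolute log2 fold change over the square root of F, and are approximate. Single copies share reads and are uncertain. The script was tested on simulated data.

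Alternatives were DESeq2 1.42.0 size factors or Wald test, total counts, snoRNA TMM factors, no filter on low counts, the replicate number as a block, the 4 libraries compared alone, leaving out each library, and 1 copy per distinct sequence. That copy was the one with the most counts over all libraries. The 2 count classes, the shared level and the counts above it, were derived from gene counts without reads. They were added after the data were seen. Depth was 14304014 to 21061460 counts per library, and the low counts of single mRNAs limit their precision. The genes, lists and tests were chosen with earlier results of these data known. Named single copies are the highest, lowest, most and least counted of a family, those of unique sequence, at 0, or called unlike their family. tG(GCC), the mitochondrial copies, DPS1, GUS1, UBC9 and each called member of the 4 mRNA lists were named beside them.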

Additional observations from a re-analysis of the deposited data

Results flagged for a closer look

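For tE(UUC)M the strains differed in opposite directions without and with rapamycin, in every library and with no overlap. Its log2 fold change of ubc9-1 over WT was 0.64 with the drug and -0.94 without it. The difference between these values, which is the interaction, was 1.58 (SE 0.523, edgeR adjusted p = 0.219) and did not pass the threshold. With TMM factors from snoRNAs the value without the drug was 0.05, so the opposite directions depend on the scaling. These factors also moved the median of all features in that comparison to 1.03.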

How the results depend on the processing

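Values are log2 fold changes with adjusted p in brackets, where one applies; the cause of these shifts was not tested. With rapamycin in WT, tD(GUC) reached the threshold with no filter at -1.01 (0.0470), with DESeq2 at -1.05 (0.0389) and with the replicate block at -0.98 (0.00531). tE(UUC) reached it with DESeq2 at -0.97 (0.0236), with the block at -0.86 (0.0190) and at the shared level at -1.24 (0.0215). tE(CUC) missed it with total counts at -0.64 (0.235) and snoRNA factors at -0.90 (0.152). Total counts gave tD(GUC) -0.47 (0.239) and tE(UUC) -0.36 (0.430), and 1 copy per sequence tE(UUC) -0.58 (0.262). tE(UUC)L turned to 0.14 with total counts. Single copies called were 0 with total counts, 1 with snoRNA factors, 29 with the block and 1 with only the 4 libraries compared. Leaving out a library gave 0 to 14 copies, and -1.45 to -0.42 for tD(GUC), -1.29 to -0.49 for tE(UUC) and -1.51 to -0.76 for tE(CUC).

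With rapamycin in ubc9-1, signs near 0 turned: tD(GUC) was 0.0502 with total counts, 0.0151 with the block and 0.0427 above the shared level, and with snoRNA factors tE(CUC) was -0.50 and tD(GUC)G1 -0.53. Leaving out a library gave -0.41 to 0.49 for tD(GUC), -0.60 to 0.22 for tE(UUC), -0.31 to 0.49 for tE(CUC), -0.40 to 0.44 for tD(GUC)G1, -0.55 to 0.36 for tD(GUC)N, -0.60 to 0.32 for tE(UUC)L and -0.25 to 0.14 for tE(UUC)M.

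For ubc9-1 against WT untreated, tD(GUC) passed with no filter at -1.20 (0.0381), DESeq2 at -1.24 (0.0257), the block at -1.18 (0.00327), 1 copy per sequence at -1.39 (0.0450) and above the shared level at -1.69 (0.0236). tE(CUC) passed with no filter at -1.11 (0.0434), DESeq2 at -1.16 (0.0243) and the block at -1.12 (0.00326). With snoRNA factors tE(UUC) was 0.12, tD(GUC)N 0.22 and tE(UUC)M 0.0472. Copies called were 1 with total counts, 1 with no filter, 3 with DESeq2 and 19 with the block. Leaving out a library gave 0 to 1 copies, -1.69 to -0.57 for tD(GUC), -1.23 to -0.32 for tE(UUC), -1.55 to -0.69 for tE(CUC) and -1.19 to 0.0071 for tD(GUC)N.

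For ubc9-1 against WT under rapamycin, tE(CUC) was -0.25 and tD(GUC)N -0.15 with total counts. tE(UUC) was 0.0026 with snoRNA factors and 0.24 at the shared level. Leaving out a library gave -0.53 to 0.19 for tD(GUC), -0.24 to 0.0499 for tE(UUC), -0.22 to 0.43 for tE(CUC) and -0.0860 to 0.50 for tD(GUC)N. For the interaction, tE(UUC) was -0.12 with snoRNA factors and -0.0611 above the shared level, tE(CUC) passed with the block at 1.20 (0.0443), and tE(UUC)L was -0.26 with total counts, -0.57 with snoRNA factors and -0.18 to 0.74 when a library was left out. When a library was left out, the values were 0.38 to 1.5 for tD(GUC), 0.23 to 1.15 for tE(UUC) and 0.78 to 1.64 for tE(CUC). Copies called were 1 with DESeq2 and 2 with the block.

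The tD(GUC) to tE(UUC) ratio with 1 copy per sequence was 0.15 (log2) for ubc9-1 against WT under rapamycin. Leaving out a library gave this ratio -0.50 to 0.31 for rapamycin in WT and -0.49 to 0.33 for the strains under rapamycin, and gave tE(CUC) to tE(UUC) -0.64 to 0.10 and -0.18 to 0.57 in these comparisons. The labels do not state that replicate numbers pair libraries, and deviations of same-numbered libraries correlated at 0.086 to 0.173 across features, so values with the replicate block rest on a shared number only. With the block the mRNA lists had 1 wobble uridine and 1 tRNA body call between the untreated strains, 1 charging call under rapamycin and 1 tRNA body call with rapamycin in ubc9-1, all lower. Depth limits the least counted mRNAs, such as UBC9 with 2 and 74 counts in untreated WT.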
